A study of Mus musculus with 12 samples.

Results

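The genes that encode the proteins of the cytosolic ribosome were followed in the livers of 12 adult female mice. Members were the genes whose symbol is Rps or Rpl followed by a number, with or without a final a, x or l, together with Rplp0, Rplp1, Rplp2 and Rpsa, and with at least 1 TPM (a transcript abundance per length, on a scale with the same total in every library) in at least 3 of the 12 livers. Of 41743 genes listed, 80 carried such a name and 77 met the level. The other 3, the paralogues Rpl3l, Rpl10l and Rpl39l, did not exceed 0.459 TPM in any liver. All 77 members were at or above 1 TPM in every one of the 12 livers, 31 of them belonging to the small subunit and 46 to the large subunit.

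RNA from frozen whole liver was sequenced from 4 groups of 3 mice aged 3 to 4 months. YAP KO mice lost floxed Yap1 through Foxa3-Cre, which is active in foregut endoderm, the source of hepatocytes and bile duct cells, and they also carried a ROSA-stop-EYFP reporter; their WT littermates were C57BL/6. YAP KO TAZ HET mice lost Yap1 in the same way together with 1 copy of Wwtr1, the gene for TAZ, a coactivator related to YAP, and their WT littermates came from the same mixed C57BL/6-FVB crosses. The libraries came from whole tissue, and deletion by cell type was not measured in them. Each model was compared with its own littermates. The genotypes, the backgrounds and the sets of animals go together, so that a difference between the models cannot be told apart from a difference between the backgrounds.

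Ribosomal proteins are built into the small subunit, which reads the mRNA, and the large subunit, which joins amino acids and lets the new chain out through an exit tunnel. Their mRNAs are among the most abundant in any cell, are long lived, and mostly begin with a C followed by a run of pyrimidines, the 5′ terminal oligopyrimidine or TOP sequence, through which mTOR controls their translation. Mammalian genomes hold very many processed pseudogene copies of them, so that short reads can match several places. In the liver they serve the heavy synthesis of plasma proteins by hepatocytes.

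Start sites of 6 picked members are shown as examples with or without the TOP sequence. The search described below found a C with such a run in 24 of 57 members (42.1%), so that these examples do not show how often it occurs. Each line gives 30 bases of the sense strand, 15 before and 15 from the RefSeq start on (GRCm38.p6), and the capitals mark a C within 3 bases of the start and the pyrimidines that follow it, while pyrimidines just before that C are left in lower case. Rps18 lies at chr17:33955651-33955680 (minus strand), Rpl35a at chr16:33056467-33056496, Rpl38 at chr11:114668565-114668594, Rps6 at chr4:86857353-86857382 (minus strand), Rpl12 at chr2:32961697-32961726 and Rplp0 at chr5:115559452-115559481. Of 3 RefSeq starts of Rpl35a the one with such a C and run is given, and Rplp0 was chosen as a member in which this search found none.
Rps18: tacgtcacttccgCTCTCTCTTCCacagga
Rpl35a: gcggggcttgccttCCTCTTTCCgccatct
Rpl38: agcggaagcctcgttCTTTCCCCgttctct
Rps6: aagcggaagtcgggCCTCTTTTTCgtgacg
Rpl12: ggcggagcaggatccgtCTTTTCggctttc
Rplp0: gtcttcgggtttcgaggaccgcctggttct

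RefSeq promoter sequences, with 250 bases before and 50 after each start, were matched by symbol to 57 of the 77 members. A C followed by 4 or more pyrimidines within 3 bases of a start was found in 24 of the 57 (42.1%) and in 13.5% of 27025 genes, searching the sense strand. CCGGAAG, a core that ETS factors can bind, was present on either strand in 24 of the 57 (42.1%) against 9.93% of all genes. The TATA box letters TATAAA, on either strand, occurred in 6 (10.5%) against 15.7%. No overlap between these patterns was removed, and a match is a description of the window only.

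The members were abundant in all 12 livers. Mean levels over the 12 livers ran from 27.29 TPM for Rps15a to 1280 TPM for Rplp1, a ratio of 46.9, with a median of 330.6 TPM, and 73 members exceeded 100 TPM. The 5 highest were Rplp1, an acidic protein of the stalk that recruits elongation factors (1280 TPM), Rpl41, the shortest member (757.5 TPM), Rps6, the phosphorylated target of the S6 kinases (749.0 TPM), Rpl13 (727.3 TPM) and Rpl7a (680.0 TPM). The 5 lowest were Rps15a (27.29 TPM), Rps20 (81.36 TPM), Rpl22 (94.79 TPM), Rpl18 (96.23 TPM) and Rps19 (108.4 TPM). TPM are per length, but how reads shared with near-identical copies were placed is not given in the sources used here. Rpl10 had a mean of 182.0 TPM, while Rpl10-ps3, with the same coding bases, lay between 873.9 and 1269 TPM. The order and the ratio above therefore hold for TPM as listed, and levels of members with such copies are uncertain. Within groups the members varied little. Their median SD between mice of a group was 0.131 on the log2 scale, against 0.193 for the 12159 genes that met the same level. Rps18 (2.188), Rps2 (0.976), Rps21 (0.485), Rpl38 (0.472), Rps29 (0.465) and Rpl39 (0.444) had the largest SDs.

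**Figure D1:**
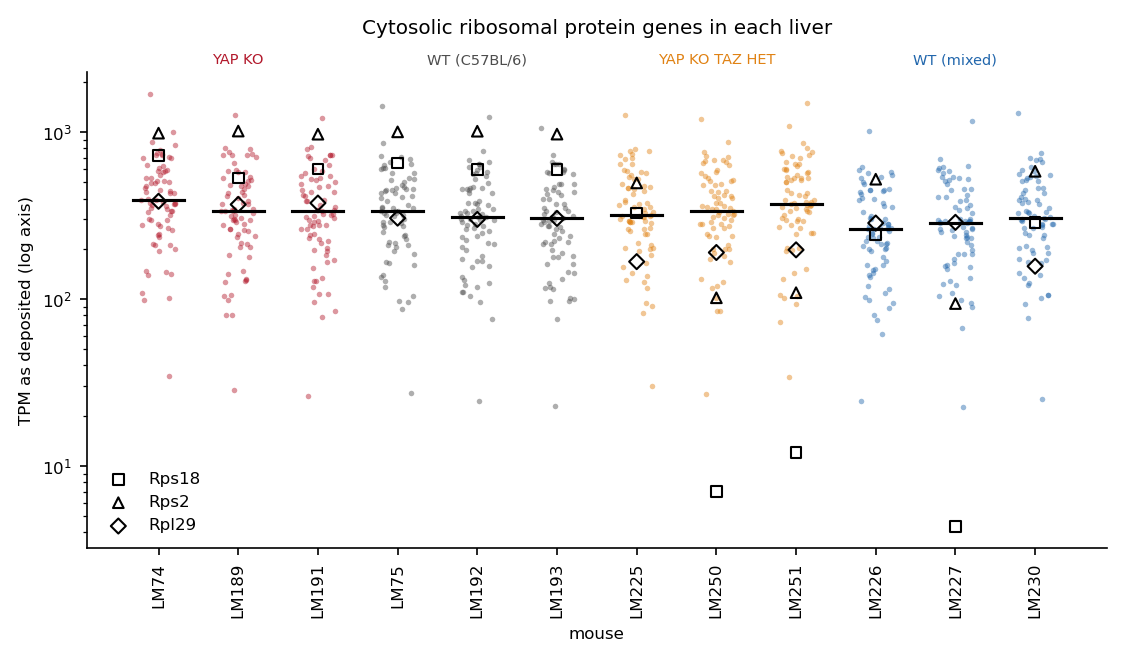
TPM as deposited of the 77 members in each liver (log axis). Each dot is a member, black lines are medians of the 77, and open symbols are Rps18, Rps2 and Rpl29. The medians lie between 262.0 and 391.0 TPM, and Rps18 drops to 7.041, 12.05 and 4.325 TPM in 3 livers of the mixed background.

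Together the members took up 2.26% to 3.46% of the transcript pool. Their TPM summed to 34551, 29866 and 29556 in YAP KO livers and to 29729, 27460 and 26353 in their WT littermates. In YAP KO TAZ HET livers the sums were 28942, 28719 and 32331, against 22637, 24102 and 26890 in WT (mixed) livers. The lowest YAP KO sum lay below the highest of its littermates, whereas the sums of YAP KO TAZ HET mice lay above all 3 of theirs. The ratio of the means was 1.12 in the first model (1.07 to 1.16 when each mouse was left out in turn) and 1.22 in the second (1.18 to 1.28). Without Rps18, Rps2 and Rpl29, whose levels differed among mice of the mixed set, the ratios were 1.13 and 1.24. The WT (mixed) mean was 0.881 times that of WT (C57BL/6), and 0.915 times without those 3 genes. Large subunit members summed to between 1.466 and 1.781 times the small subunit members.

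How these sums translate into changes of single genes depended on how the libraries were put on one scale. When libraries were scaled by a trimmed mean of log ratios, TPM in YAP KO livers were divided by 1.084 to 1.223 and those of their littermates by 0.8513 to 0.911. For YAP KO TAZ HET the factors were 1.071 to 1.183, and for WT (mixed) 0.8606 to 0.9519. The median log2 fold change of all genes tested was 0.28 before and -0.04 after scaling in YAP KO, and 0.24 before and -0.04 after it in YAP KO TAZ HET. Directions below are therefore tied to their scale. Tests were limma on log2(TPM + 1), with p-values adjusted over all genes tested, a threshold of 0.05, and 3 mice against 3, so that p-values measure the spread between these mice.

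Between YAP KO and WT (C57BL/6) livers the members shifted together by a small amount, downward on the scaled and upward on the deposited values. On scaled TPM, 13 of 77 members fell (16.9%) and 0 rose. Over 11704 genes, 18.1% fell and 18.7% rose, so that the share of members that fell was close to that of all genes. An unadjusted p under 0.05 was found for 27 of 77 members on either scale. Of the 11704 genes, 5465 had one when scaled and 6159 as deposited. With a block for LM74 and LM75, whose numbers lie apart from the rest, added after seeing the data, 22 members fell and 0 rose at the same median of -0.20, where 20% of all genes fell and 19.6% rose. The median log2 fold change of the members was -0.20, against -0.04 for all genes. On TPM as deposited, 19 members rose (24.7%) and 0 fell, where 37.5% of all genes rose and 7.13% fell, and the medians were 0.16 for members and 0.28 for all genes. The members' median thus lay 0.16 (scaled) or 0.12 (deposited) below that of all genes, but quantile normalization placed it 0.17 above, with 14 members higher and 1 lower. Of all 11704 genes, 2113 were then higher and 2105 lower. Values of the 2 groups did not overlap for 40 members lower in YAP KO and 1 higher on scaled TPM (26.8% and 24.7% of all genes), and for 1 lower and 34 higher as deposited (9.29% and 47.5%). Leaving out LM191 reduced the 13 scaled falls to 2, leaving out LM189, LM75 or LM193 to 5 and LM192 to 7. The 19 deposited rises became 8 without LM74, 9 without LM193 and 11 without LM189 or LM192. These fits have fewer mice, and the share of all genes called in them is not given here. Whether the loss of calls is particular to the members therefore cannot be told.

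Between YAP KO TAZ HET and WT (mixed) livers few members were called on scaled TPM and many were higher on the deposited values. On scaled TPM 0 members rose and 1, Rpl29, fell (1.3%), with 4 at an unadjusted p under 0.05 (44 as deposited), while 19.2% of 11741 genes rose and 18.7% fell. Of these genes, 5604 had an unadjusted p under 0.05 when scaled and 5982 as deposited. The median was -0.03 for members and -0.04 for all genes. As deposited, 32 members rose (41.6%) and 0 fell, against 34.8% and 7.55% of all genes, and the medians were 0.29 and 0.24. Without overlap, 0 members stood below their littermates and 1 above when scaled (27.3% and 24.7% of all genes), and 51 stood above as deposited (44.4%). Quantile normalization gave 31 higher, 0 lower and a median of 0.34. Of all 11741 genes, 2193 were then higher and 2174 lower, with a median of -0.04. The 32 rises became 9 without LM251, 11 without LM226, 12 without LM227 and 15 without LM250, and the scaled count of rises went from 0 to 4 without LM225. The share of all genes called in these smaller fits is not given here. A loss of calls therefore cannot be read as particular to the members.

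**Figure D2:**
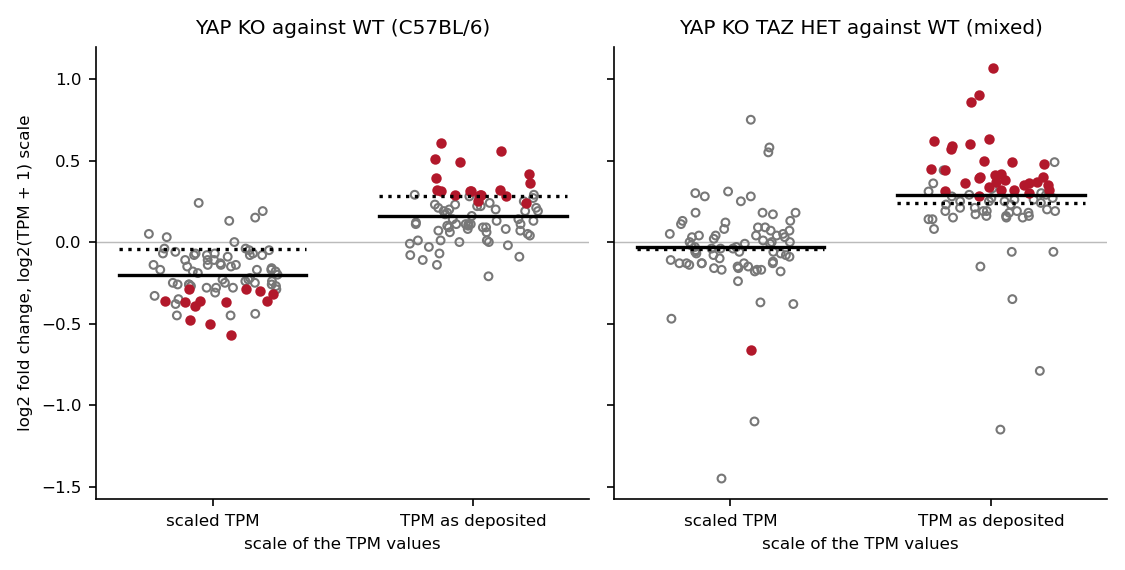
Log2 fold changes, on the log2(TPM + 1) scale, of the 77 members in YAP KO (left) and YAP KO TAZ HET (right) livers against their WT littermates, from scaled and from deposited TPM. Filled points have a limma adjusted p under 0.05, solid lines are medians of the members and dotted lines medians of all genes tested. Without the scaling the members' median is 0.16 in place of -0.20 in YAP KO, and 0.29 in place of -0.03 in YAP KO TAZ HET.

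Markers of other cell types moved with both genotypes in the same tissue. The 6 hepatocyte markers were detected in every library, as the label of liver requires, and summed to 74959 to 83699 TPM in YAP KO and 97863 to 109833 TPM in WT (C57BL/6), and to 71016 to 88571 against 88606 to 111977 TPM in the other set. They did not all move with these sums. In each model 5 of the 6 had a log2 fold change below 0 and 1 above it when scaled, but 3 below and 3 above as deposited. The 5 macrophage markers summed to 551.8 to 814.2 against 185.0 to 229.4 TPM and 636.6 to 685.7 against 161.0 to 328.0 TPM, and the 5 stellate cell markers to 314.7 to 410.0 against 127.4 to 149.6 TPM and 276.3 to 349.9 against 111.2 to 136.2 TPM. In both models and on both scales 4 stellate cell markers had a log2 fold change above 0 and 1 below it. The 1 below passed in YAP KO when scaled, at -0.85. The 5 cholangiocyte markers reached 322.8 to 741.7 against 28.79 to 54.72 TPM and 98.72 to 217.8 against 42.97 to 59.91 TPM, mostly through Spp1 and, less, Sox9, while Krt19, Krt7 and Epcam stayed at 6.387 TPM or less in every library. Epcam fell in YAP KO TAZ HET livers, against the direction of the sum, by 1.48 on the scaled log2 scale (limma adjusted p = 0.00116) and 1.33 as deposited (limma adjusted p = 0.0012). The 4 neutrophil markers summed to 44.23 to 47.58 against 7.575 to 13.25 TPM and 10.26 to 47.71 against 4.097 to 6.291 TPM. Sums of the 5 B cell and 5 T cell markers were at 8.567 TPM or less in every library, with Ighm and Trac listed at 0, the 4 endothelial markers lay between 54.95 and 94.45 TPM, and the 4 erythroid markers between 516.1 and 1715 TPM. The part of these cells in the members' levels was not tested, and in whole tissue fewer cells of a type and less RNA per cell cannot be told apart. Yap1 itself was at 3.72, 1.93 and 1.67 TPM in YAP KO against 30.5, 30.4 and 28.2 TPM, and 8.63, 9.20 and 11.5 TPM in the YAP KO TAZ HET mice against 33.2, 32.3 and 31.0 TPM. Wwtr1 was higher than in littermates in every mouse of both models (13.3 to 16.7 against 6.26 to 6.83 TPM, and 11.5 to 14.1 against 7.73 to 8.38 TPM), so that gene-level TPM do not show the deleted copy.

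Among small subunit members, 5 of 31 fell on scaled TPM in YAP KO livers and 5 rose as deposited. Of all genes, 18.1% fell on scaled TPM and 37.5% rose as deposited. The 5 proteins at the mRNA entry and the decoding centre, Rps2, Rps3, Rps15, Rps18 and Rps23, had the lowest median of the role groups on scaled TPM, -0.37, and 4 of them fell, although their deposited median was 0.00 with 0 called in either direction. Rps23, which lies at the decoding site, was at 336.4, 307.9 and 278.9 TPM in YAP KO and 328.7, 300.1 and 310.7 TPM in WT livers. These values overlapped, and the log2 fold change was -0.39 (SE 0.10, adjusted p = 0.0193) when scaled and -0.03 (adjusted p = 0.831) as deposited. The scaled call was lost without LM191 (adjusted p = 0.0807) or LM193 (adjusted p = 0.0526). Rps15 fell by 0.36 on the scaled log2 scale (adjusted p = 0.0222), while its deposited values, 566.2 to 594.1 TPM in YAP KO and 570.0 to 591.7 TPM in WT livers, gave 0.00. Rps3, which also repairs DNA outside the ribosome, passed on neither scale (-0.14 and 0.23). Rps12, another small subunit protein, was at 593.6, 539.1 and 517.8 TPM in YAP KO against 450.8, 376.3 and 351.7 TPM in WT livers, with no overlap, and it rose by 0.49 as deposited (SE 0.11, adjusted p = 0.00918) but by 0.13 when scaled (adjusted p = 0.468). Rps6 (-0.24 scaled, 0.13 deposited), Rpsa, which also acts at the cell surface as a laminin receptor (-0.17 and 0.20), and Rps27a, which is made fused to ubiquitin (-0.11 and 0.25), passed on neither scale.

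The large subunit members Rpl22 and Rpl35a had the largest scaled falls in YAP KO livers. Rpl22, an RNA-binding protein that general translation can do without, was at 100.9, 80.01 and 84.72 TPM in YAP KO and 96.70, 110.1 and 100.4 TPM in WT livers. LM74 lay within the range of the littermates and the other two below it. The change was -0.57 scaled (SE 0.092, adjusted p = 0.00219) and -0.21 as deposited (SE 0.11, adjusted p = 0.156). Rpl35a, which is mutated in some patients with Diamond-Blackfan anaemia, was at 299.3, 290.8 and 295.4 TPM against 317.4, 328.5 and 330.6 TPM. It was the 1 member whose deposited values lay wholly below those of its littermates, with a change of -0.50 scaled (SE 0.092, adjusted p = 0.00386) and -0.14 as deposited (SE 0.076, adjusted p = 0.169). Rpl36 fell by 0.48 on the scaled log2 scale (SE 0.13, adjusted p = 0.0250) and had -0.11 as deposited, its values overlapping with LM74 at 634.4 and LM75 at 710.8 TPM. This call was lost without LM189 (adjusted p = 0.0758) or LM191 (adjusted p = 0.0741). Rpl28, Rpl11, Rpl18, Rpl26, Rps18 and Rps2 were also among the 13 scaled falls, at -0.29 to -0.37.

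None of the stalk proteins fell when scaled. Rplp0, Rplp1, Rplp2 and Rpl12 form the base and the arms of the stalk to which elongation factors bind. Their median was 0.02 scaled and 0.38 as deposited, with 2 of 4 called higher as deposited, where 37.5% of all genes rose. Rpl12 was at 369.9, 326.7 and 316.6 TPM in YAP KO and 241.5, 226.4 and 197.3 TPM in WT livers. All 3 YAP KO mice lay above all 3 littermates, and Rpl12 was the 1 member that did so on both scales, with 0.61 as deposited (SE 0.11, adjusted p = 0.00262) and 0.24 when scaled (SE 0.11, adjusted p = 0.123). The scaffold Rplp0 was at 731.2, 650.8 and 640.0 TPM against 529.9, 365.7 and 491.0 TPM, and its change of 0.56 as deposited (SE 0.14, adjusted p = 0.0142) was 0.19 when scaled (adjusted p = 0.373). Rplp1 and Rplp2 had 0.16 and 0.20 as deposited and -0.20 and -0.16 when scaled, and passed on neither scale. Rpl21 (0.42, adjusted p = 0.00496) and Rpl10 (0.51, adjusted p = 0.0264), which joins the subunit last and completes its active site, were also higher as deposited, with 0.05 and 0.15 when scaled. Rpl10-ps3 has the same coding bases as Rpl10, so that the level of Rpl10 by itself is uncertain.

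Other role groups followed the median of the members. Rpl5 and Rpl11 carry 5S rRNA and bind MDM2 when ribosome assembly fails. Rpl5 was at 262.7 to 276.0 TPM in YAP KO and 211.1 to 217.2 TPM in WT livers and rose as deposited (0.32, adjusted p = 0.0111; scaled -0.04), while Rpl11, at 436.2 to 475.4 and 425.5 to 453.5 TPM, fell when scaled (-0.32, adjusted p = 0.0289; deposited 0.05). Of 8 proteins that line or surround the exit tunnel, Rpl26 fell on scaled TPM (-0.29, adjusted p = 0.0364) and Rpl4 and Rpl19 rose as deposited (0.25 and 0.39), with medians of -0.16 and 0.20. Of 15 genes known from Diamond-Blackfan anaemia, an inherited failure of red cell production, 3 fell when scaled and 4 rose as deposited, with medians of -0.22 and 0.14. Over all genes, 18.1% fell when scaled and 37.5% rose as deposited. Rpl13a, known as a regulator of inflammatory mRNAs, passed on neither scale (-0.15 and 0.21).

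In YAP KO TAZ HET livers the role groups had scaled medians between -0.16 (mRNA entry and decoding) and 0.00 (Diamond-Blackfan anaemia), and 0 of the 4 stalk, 2 5S, 8 tunnel, 5 decoding and 15 Diamond-Blackfan genes were called when scaled. As deposited 2, 1, 4, 1 and 7 of them rose and 0 fell, where 34.8% of all genes rose and 7.55% fell. Rpl12 was at 317.4, 275.8 and 339.3 TPM against 195.2, 187.2 and 233.4 TPM in WT (mixed) livers, again without overlap as deposited, with 0.60 (SE 0.12, adjusted p = 0.00515) and 0.28 when scaled (SE 0.14, adjusted p = 0.159). Rps12 was at 471.6, 484.0 and 628.4 TPM against 301.7, 328.6 and 396.3 TPM, with 0.62 as deposited (SE 0.15, adjusted p = 0.01) and 0.30 when scaled (adjusted p = 0.229). LM251 was the highest of its group for both genes, as for the summed members. Rplp0 rose as deposited (0.32, adjusted p = 0.0445) and was at 0.00 when scaled. Rpl22 and Rpl35a, the leading scaled falls of the first model, had -0.37 (adjusted p = 0.0564) and -0.24 (adjusted p = 0.149) when scaled, and -0.06 and 0.08 as deposited.

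Rpl39 had the largest change upward in YAP KO TAZ HET livers. This protein of 51 residues lines the exit tunnel, and its gene on the X chromosome (GRCm38, chrX:37082520-37085402, minus strand) was at 154.6, 199.9 and 317.3 TPM against 94.57, 104.2 and 106.3 TPM. The groups did not overlap on either scale, and LM251 stood furthest out. The change was 1.07 as deposited (SE 0.23, adjusted p = 0.00563) and 0.75 when scaled (SE 0.26, adjusted p = 0.0528). Rpl38, a protein of 70 residues needed for translation of Hox mRNAs in the embryo, was at 211.3, 297.5 and 411.9 TPM against 135.1, 156.0 and 187.6 TPM (0.90 as deposited, adjusted p = 0.0129; 0.58 scaled). Rps29, a zinc-binding protein of 56 residues, was at 315.7, 509.6 and 577.0 TPM against 216.5, 253.3 and 279.1 TPM (0.86, adjusted p = 0.0116; 0.55 scaled), and Rpl41, of 25 residues, at 796.9, 872.3 and 1093 TPM against 532.5, 581.3 and 658.1 TPM (0.63, adjusted p = 0.00774; 0.31 scaled). For all 3 genes every YAP KO TAZ HET mouse exceeded every littermate as deposited, but not when scaled.

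**Figure D3:**
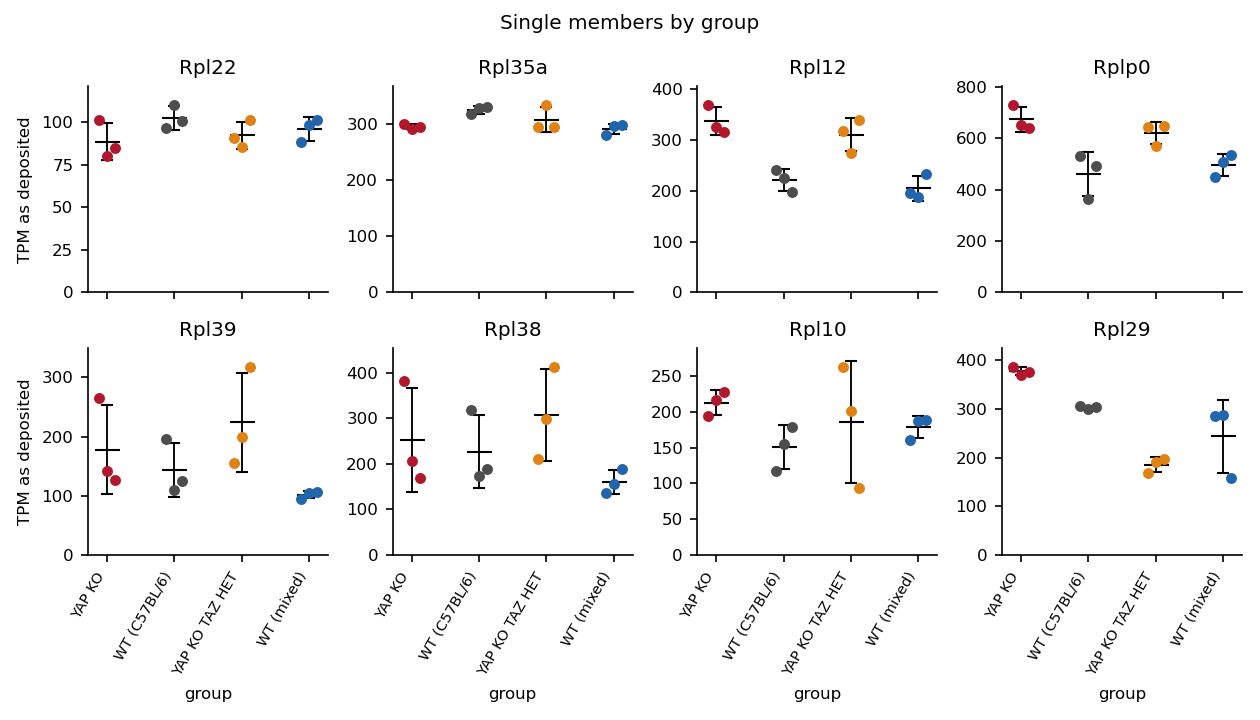
TPM as deposited of 8 members in the 4 groups. Points are mice, in the order in which the text lists them, and bars are the mean and SD of 3 mice. Rpl12 is higher without overlap in both models (316.6 to 369.9 against 197.3 to 241.5 TPM, and 275.8 to 339.3 against 187.2 to 233.4 TPM), and Rpl39 and Rpl38 reach 317.3 and 411.9 TPM in LM251.

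The 4 last-named genes share a short coding sequence, and the short members varied among the mice of each group more than the long ones. The length limit of 100 residues was chosen after these values were seen, and the following is a description only. The 10 members below it were Rpl41, Rpl39, Rps29, Rps28, Rpl38, Rps21, Rps27, Rps27l, Rpl37a and Rpl37. Their median deviation from the mean of the 12 livers was 0.51, -0.13 and -0.26 on the log2 scale in YAP KO mice LM74, LM189 and LM191 and 0.45, -0.21 and -0.25 in their littermates LM75, LM192 and LM193. It was -0.02, 0.30 and 0.55 in YAP KO TAZ HET mice LM225, LM250 and LM251 and -0.51, -0.32 and -0.15 in LM226, LM227 and LM230. LM74 and LM75 thus stood apart from the mice of their own groups in the same direction, and they carry neighbouring animal numbers. For the 67 longer members the deviations ran from -0.28 to 0.23, and for 265 other coding genes under 100 residues from -0.14 to 0.20. The short members made up 13.1% and 13.8% of the summed member TPM in LM74 and LM75 but 9.0% to 9.9% in the other 4 livers of that set, and 13.0% and 14.4% in LM250 and LM251 but 9.9% to 10.5% in the other 4 of the mixed set. In YAP KO the short members had medians of -0.31 scaled and 0.06 as deposited with 0 of 10 called on either scale, beside -0.18 and 0.19 for the longer ones. Of the 67 longer members 13 fell when scaled and 19 rose as deposited (18.1% and 37.5% of all genes). In YAP KO TAZ HET the medians of the short members were 0.26 and 0.58 with 0 and 6 of 10 higher. The longer ones had -0.05 and 0.27 with 0 and 26 of 67 higher, and of all genes 19.2% and 34.8% were higher.

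**Figure D4:**
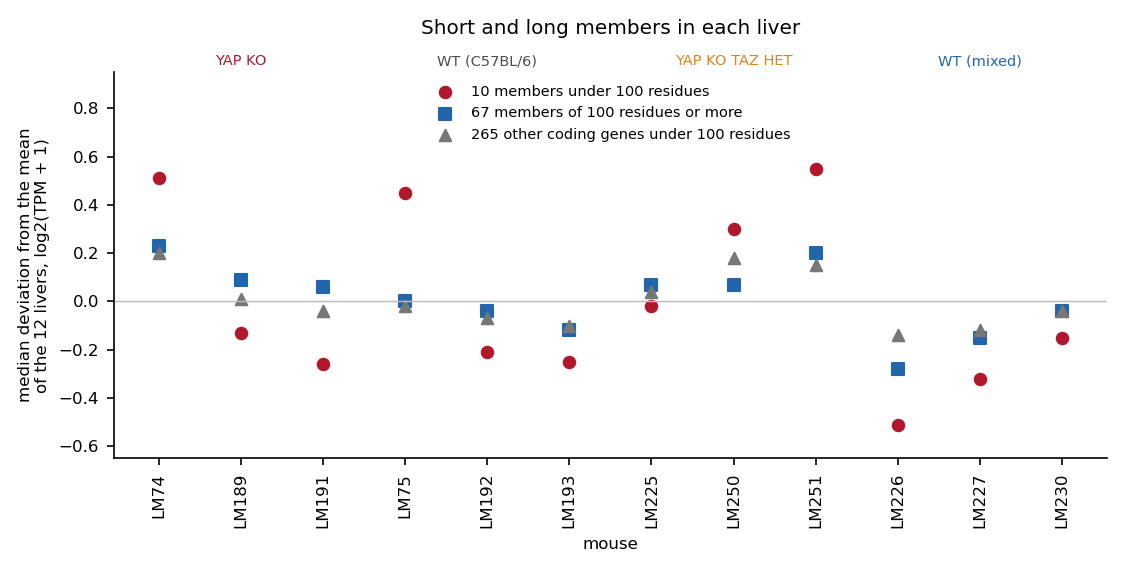
Median deviation of each liver from the mean of the 12 livers, on the log2(TPM + 1) scale, for the 10 members under 100 residues, the 67 longer members and 265 other coding genes under 100 residues. The short members range from -0.51 in LM226 to 0.55 in LM251, and LM74 (0.51) and LM75 (0.45) are high in both groups of the C57BL/6 set.

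The WT groups were compared to mark members that differ between the backgrounds or sets of animals. By limma 0 of 77 members passed on either scale, with 8 at an unadjusted p under 0.05, while 0.171% of 11126 genes were higher and 0.0449% lower in WT (mixed) when scaled (0.18% and 0.036% as deposited). Of these genes, 646 had an unadjusted p under 0.05 when scaled and 654 as deposited. The median of the members was -0.18 when scaled and -0.12 as deposited, beside 0.00 and 0.05 for all genes, and 17 members lay lower without overlap and 0 higher (5.48% and 5.47% of all genes when scaled, 3.29% and 8.42% as deposited). Background and set of animals cannot be told apart in this difference.

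Rps18 had by far the widest spread. It encodes a protein at the head of the small subunit and was at 725.9, 532.1 and 602.3 TPM in YAP KO and 653.8, 596.4 and 598.5 TPM in WT (C57BL/6) livers. The YAP KO TAZ HET mice had 328.0, 7.041 and 12.05 TPM, and the WT (mixed) mice 244.2, 4.325 and 286.8 TPM. All 6 mice of the mixed set lay below all 6 of the C57BL/6 set, and LM250, LM251 and LM227 lay far below the other 3 of their set, in both genotypes. Between the WT groups the log2 difference was -3.10 as deposited and -3.16 when scaled (SE 1.30, limma adjusted p = 0.831; exact permutation p = 0.1, two-sided, the smallest that 3 against 3 mice allow), and between YAP KO TAZ HET and WT (mixed) it was -1.45 (SE 1.74, limma adjusted p = 0.547) when scaled and -1.15 as deposited. With each mouse left out in turn the latter scaled value ran from -3.33 to -0.42. In YAP KO livers Rps18 fell when scaled (-0.37, adjusted p = 0.0391) and was at 0.00 as deposited.

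Genes at other places of the genome are nearly the same as Rps18, and they are shown because they were high where Rps18 was low. Rps18 lies at chr17:33951999-33956001 (minus strand, 5 exons), Gm10260 at chr13:97760072-97760632 (minus strand, 1 exon) and Rps18-ps5 at chr13:28257528-28258134 (plus strand, 1 exon), in GRCm38. Both copies were named here after their values were seen. Counted from 1 at the first coding base, Gm10260 differs from Rps18 by T186C, A337C, G371A and G431A (99.12% identity over 456 bases) and Rps18-ps5 by T11A, A171C and A337C (99.34%). The lines give coding bases 171 to 431 from GENCODE M21, 261 bases, with capitals at the positions where the copies differ in this stretch.
Rps18: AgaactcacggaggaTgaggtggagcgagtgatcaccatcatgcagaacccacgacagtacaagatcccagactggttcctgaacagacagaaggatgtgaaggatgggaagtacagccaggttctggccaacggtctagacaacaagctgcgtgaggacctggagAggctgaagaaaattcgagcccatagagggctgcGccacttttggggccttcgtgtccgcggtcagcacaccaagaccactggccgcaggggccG
Gm10260: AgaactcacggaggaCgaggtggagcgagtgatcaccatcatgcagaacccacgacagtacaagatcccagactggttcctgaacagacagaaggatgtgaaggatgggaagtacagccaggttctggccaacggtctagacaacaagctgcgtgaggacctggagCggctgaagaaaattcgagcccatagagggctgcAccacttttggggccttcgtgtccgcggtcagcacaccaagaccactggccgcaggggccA
Rps18-ps5: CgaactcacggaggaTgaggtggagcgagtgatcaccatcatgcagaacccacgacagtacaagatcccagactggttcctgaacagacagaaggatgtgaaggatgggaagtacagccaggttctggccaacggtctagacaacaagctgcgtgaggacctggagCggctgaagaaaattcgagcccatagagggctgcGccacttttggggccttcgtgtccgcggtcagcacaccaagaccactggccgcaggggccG

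Gm10260 lay between 0.1898 and 1.512 TPM in the 6 livers of the C57BL/6 set. In mice of mixed background its level was 255.6, 519.8 and 431.5 TPM in the YAP KO TAZ HET mice and 198.1, 408.0 and 217.0 TPM in WT livers. Its 3 highest values were in LM250, LM251 and LM227, the livers with the lowest Rps18. Rps18-ps5 was between 0.7462 and 2.095 TPM in the C57BL/6 set and 37.35, 120.9 and 162.4 TPM in the YAP KO TAZ HET mice and 38.72, 74.64 and 42.57 TPM in WT (mixed) livers, with the same 3 livers highest. Between the WT groups both copies were higher in WT (mixed), by 7.04 for Gm10260 (limma adjusted p = 3.48e-05) and 4.60 for Rps18-ps5 (limma adjusted p = 0.000152) when scaled, and by 7.08 (limma adjusted p = 2.08e-05) and 4.65 (limma adjusted p = 5.7e-05) as deposited. Summed over the 3 genes, TPM were 728.6, 533.2 and 603.6 in YAP KO, 655.3, 599.2 and 600.2 in WT (C57BL/6), 620.9, 647.8 and 605.9 in YAP KO TAZ HET, and 481.0, 486.9 and 546.4 in WT (mixed) livers. The sum therefore stayed between 481.0 and 728.6 TPM where Rps18 alone ran from 4.325 to 725.9 TPM. As deposited, the sum was higher in every YAP KO TAZ HET than WT (mixed) mouse (exact permutation p = 0.1, two-sided), while Rps18 by itself overlapped (exact permutation p = 1.0). In YAP KO the sum overlapped (exact permutation p = 0.8). Between the WT groups the sum was lower in every WT (mixed) than WT (C57BL/6) mouse, with means of 504.8 and 618.2 TPM (exact permutation p = 0.1, two-sided). The sum was not tested on scaled TPM, so that these directions hold for the deposited values only. How reads that match several of these genes were placed is not given in the sources used here, so that the levels of the 3 genes are uncertain one by one.

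**Figure D5:**
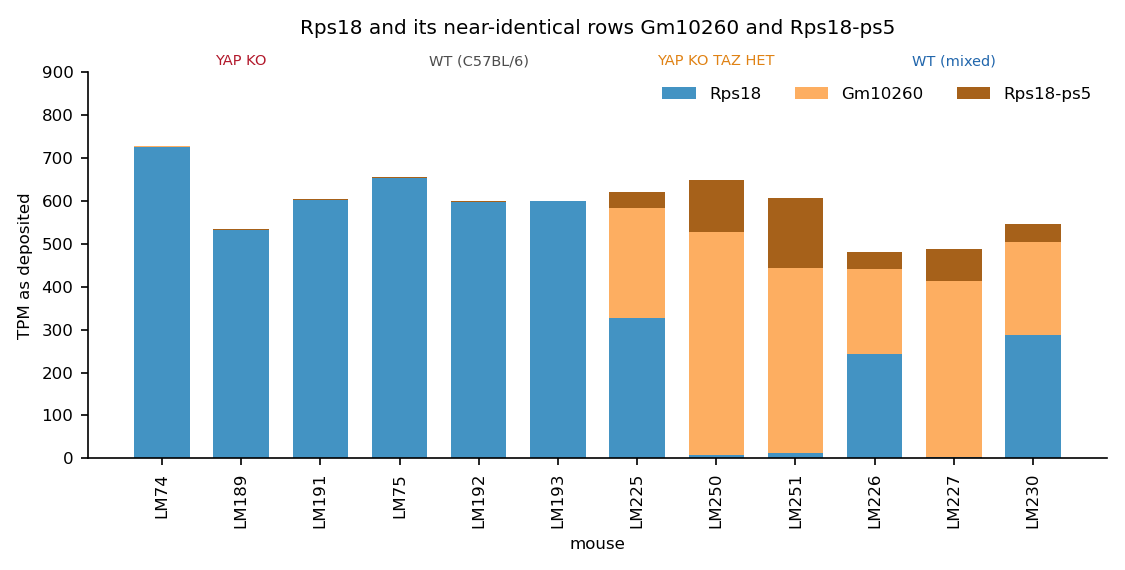
Stacked bars of TPM as deposited for Rps18, Gm10260 and Rps18-ps5 in each liver. Rps18 makes up nearly all of the bar in the C57BL/6 set and 4.325 to 328.0 TPM in the mixed set, while the 3 genes together stay between 481.0 and 728.6 TPM.

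Rps2 showed a like spread without a copy among the genes listed. It encodes a protein at the mRNA entry site, lies at chr17:24718116-24721929 and was at 986.3, 1015 and 972.2 TPM in YAP KO and 1004, 1013 and 973.2 TPM in WT (C57BL/6) livers. In mice of mixed background its level was 496.5, 101.8 and 109.2 TPM in the YAP KO TAZ HET mice and 522.5, 94.01 and 582.9 TPM in WT livers. The 3 lowest mice were LM250, LM251 and LM227, as for Rps18, and all 6 of the mixed set were below all 6 of the other. The difference between the WT groups was -1.70 as deposited and -1.76 when scaled (SE 0.59, limma adjusted p = 0.714; exact permutation p = 0.1, two-sided) and the change in YAP KO TAZ HET -1.10 when scaled (SE 0.77, limma adjusted p = 0.289) and -0.79 as deposited. The annotation holds 55 near-identical copies of Rps2 (at least 90% identity over at least 30% of the coding length), all pseudogenes, which were not analysed here. In YAP KO Rps2 fell by 0.37 on the scaled log2 scale (SE 0.10, adjusted p = 0.0247) and had -0.01 as deposited. The scaled call was lost without LM191, LM75, LM192 or LM193 (adjusted p = 0.0574 to 0.0742) and with all 12 libraries in 1 fit (adjusted p = 0.675).

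Rpl29, a heparin-binding protein of the large subunit, was the 1 member called in YAP KO TAZ HET on scaled TPM, and the call rested on that processing. Its level was 167.6, 190.1 and 197.2 TPM in the YAP KO TAZ HET mice and 285.5, 288.2 and 157.3 TPM in WT (mixed) livers. LM230 lay below all 3 YAP KO TAZ HET mice, so that the groups overlapped. The change was -0.66 when scaled (SE 0.22, adjusted p = 0.0430) and -0.35 as deposited (SE 0.22, adjusted p = 0.235). The scaled call was lost without LM225, LM250, LM251, LM226 or LM227, with limma adjusted p from 0.074 to 0.128, and held without LM230 (adjusted p = 0.00398). In the C57BL/6 set Rpl29 was at 385.4, 368.9 and 376.1 TPM in YAP KO and 305.4, 300.0 and 304.2 TPM in WT livers, where it rose as deposited (0.31, adjusted p = 0.0116) and had -0.05 when scaled. It has 69 annotated near-identical copies, 68 of them pseudogenes. Near-identical copies were the rule, since 75 of the 77 members had at least 1, with 1101 copies in all, 1068 of them pseudogenes, and 17 members had a copy among the genes listed.

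No member passed the test of the difference between the models. Over 12159 genes 0.0247% had a higher and 0.0329% a lower change in YAP KO than in YAP KO TAZ HET when scaled (0.0247% each as deposited), and 0 of 77 members were among them, with 2 members at an unadjusted p under 0.05 when scaled (Rpl29 at 0.61 and Rpl37 at -0.60) and 3 as deposited. Of the 12159 genes, 555 had an unadjusted p under 0.05 when scaled and 530 as deposited. The median difference of the members was -0.14 when scaled and -0.10 as deposited, beside 0.01 and 0.05 for all genes.

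Paralogues and ribosomal protein genes outside the naming rule showed the same dependence on scale. Rps3a1, a small subunit protein, was at 656.9, 630.2 and 553.6 TPM in YAP KO, 632.1, 653.3 and 612.8 TPM in WT (C57BL/6), 362.8, 325.5 and 356.1 TPM in YAP KO TAZ HET and 296.3, 95.86 and 386.8 TPM in WT (mixed) livers. All 6 mice of the mixed set were again below the other 6, and LM227 was the lowest. Of the 7 such genes, 4 fell in YAP KO when scaled, where 18.1% of all genes fell. They were Rps3a1 (-0.41, adjusted p = 0.0142), Fau (-0.38), Rpl7l1 (-0.38) and Rpl36al (-0.35), none of which passed as deposited. In YAP KO TAZ HET Rpl7l1 fell when scaled (-0.40, adjusted p = 0.0145; deposited -0.09). Rack1, the scaffold at the small subunit head, rose as deposited in both models (0.34, adjusted p = 0.0166, and 0.38, adjusted p = 0.0128) with -0.02 and 0.06 when scaled. Rpl22l1, the paralogue of Rpl22, rose as deposited in YAP KO TAZ HET (0.72, adjusted p = 0.0286; scaled 0.40). Of members with such a paralogue, Rpl3, Rps4x and Rpl36a rose as deposited in YAP KO (0.29, 0.31 and 0.29), Rpl7 had 0.10, and Rps27 and its paralogue Rps27l had -0.07 and 0.01, with -0.06 to -0.44 for these 6 genes when scaled.

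Genes that make or control ribosomes gave the counts of this and the next paragraph, to be set against the shares of all genes. When scaled, 18.1% of all genes fell and 18.7% rose in YAP KO, and 18.7% fell and 19.2% rose in YAP KO TAZ HET. As deposited, these shares were 7.13% and 37.5% in YAP KO and 7.55% and 34.8% in YAP KO TAZ HET. Of 78 mitochondrial ribosomal protein genes, which build the separate ribosome of mitochondria, 41 fell and 0 rose in YAP KO when scaled (median -0.36), and 25 fell and 2 rose in YAP KO TAZ HET (median -0.30). As deposited 6 fell and 5 rose (median -0.01), and 3 fell and 8 rose (median 0.01). Their summed TPM, 2998 to 3386 over the 12 livers, lay at 3160 to 3305 in YAP KO and 3136 to 3358 in WT (C57BL/6) livers. On both scales and in both models their median was thus below that of the cytosolic members. Of 17 elongation factors and other TOP mRNAs, 4 fell and 1 rose when scaled in YAP KO and 2 fell and 1 rose in YAP KO TAZ HET (medians -0.23 and -0.15), whereas as deposited 3 rose and 1 fell in each (0.13 and 0.16). Eif4b, an initiation factor with a TOP mRNA, fell on both scales (-0.68 and -0.77 scaled, -0.32 and -0.46 deposited), and the histone chaperone gene Nap1l1 rose on both (0.55 and 0.46 scaled, 0.91 and 0.76 deposited).

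Of 31 initiation factor genes 3 rose and 3 fell in YAP KO and 3 rose and 6 fell in YAP KO TAZ HET when scaled (medians -0.13 and -0.17). As deposited 10 and 8 rose and 1 fell in each (0.21 and 0.14). Eif6, which keeps the large subunit from joining too early, was at 91.1, 101.9 and 106.8 TPM against 33.18, 42.95 and 40.94 TPM and at 87.64, 91.79 and 100.4 TPM against 38.57, 37.94 and 46.17 TPM. It rose without overlap in both models and on both scales (0.98 and 0.86 scaled, 1.34 and 1.17 deposited). Eif4a2, an RNA helicase, fell in both on both scales (-0.81 and -0.94 scaled, -0.44 and -0.62 deposited). Of 52 ribosome biogenesis genes 5 fell and 1 rose in YAP KO and 9 fell and 0 rose in YAP KO TAZ HET when scaled, led by Riok2 (-0.82 and -0.93), a kinase of small subunit maturation, and as deposited 6 and 4 rose and 0 and 1 fell. Riok2 had -0.48 (adjusted p = 0.174) and -0.63 (adjusted p = 0.0164) as deposited. Of 12 RNA polymerase I genes tested, 1 and 3 fell and 0 and 1 rose when scaled, and as deposited 1 rose and 0 fell in each. Of 21 genes of MYC and mTOR control tested, 2 rose and 1 fell in YAP KO and 2 rose and 4 fell in YAP KO TAZ HET when scaled, and 5 and 4 rose and 0 and 1 fell as deposited. Myc, which drives transcription of ribosomal genes, was at 10.58, 46.63 and 18.10 TPM in YAP KO against 2.394, 3.630 and 3.042 TPM, and 10.38, 10.76 and 10.12 TPM in the YAP KO TAZ HET mice against 3.217, 0.9455 and 2.292 TPM. It rose in both models on both scales (2.15 and 1.68 scaled, 2.46 and 1.93 deposited, adjusted p = 0.00858 and 0.00140 when scaled), with LM189 the highest.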

How the data were processed

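Libraries from 12 livers were sequenced as paired-end 150 bp reads. Per the study's methods, CLC Genomics Workbench aligned reads to GRCm38.p6. The deposited tables hold TPM for each gene and mouse as the authors computed them, adding up to 1000000 per library. The study's methods give 1 planned depth for the libraries; read totals of each library were not used here, so no counting error is given. The tables also carry the authors' own comparison columns (fold change, log2 fold change, p-value and FDR from edgeR after trimmed mean scaling), which were not used.

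The members and gene lists were chosen with earlier results of these data known. For each gene that reached 1 TPM in 3 or more of the libraries compared, limma 3.58.1 (R 4.3.3; trend) was run on log2(TPM + 1), which understates changes of low genes, with Benjamini-Hochberg adjustment over all genes tested. TPM were scaled by a trimmed mean of log ratios (30% of ratios and 5% of levels trimmed at each end). Exact permutation tests were two-sided. The tests were also run on simulated data in which a small part of the genes changed by large amounts in both directions. That run does not bear on small shared shifts or on the choice of scaling. Named were the 5 largest called rises and falls per comparison, the 5 highest and lowest members, role groups, paralogues and genes outside the naming rule; others were named after their values were seen. Near-identical copies were found with blastn 2.17.0 (90% identity over 30% of the coding length) in GENCODE M21, where 99.84% of the gene identifiers were found. Mice were grouped by their labels, and no replicate numbers are shared between groups. Alternatives were quantile or no scaling, pseudocount, filter, robust shrinkage, all libraries in 1 fit, thresholds, sets of members, and each mouse left out. Values of a few single genes are not reported here.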

Additional observations from a re-analysis of the deposited data

How the results depend on the processing

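Counts and medians of members depended mainly on the scaling between libraries. In YAP KO the median of -0.20 became 0.16 with no scaling and 0.12 with quantile normalization, 0 higher became 19 and 14, and 13 lower became 0 and 1. Over all genes, 2189 higher became 4390 and 2113, and 2122 lower became 834 and 2105. In YAP KO TAZ HET the median of -0.03 became 0.29 and 0.34, 0 higher became 32 and 31, and 1 lower became 0 and 0. Over all genes, 2258 higher became 4089 and 2193, and 2200 lower became 886 and 2174. Of single members, Rps2 in YAP KO went from -0.37 to 0.08 with quantile normalization. The 13 falls became 7 with all 12 libraries in 1 fit, 2 at an adjusted p under 0.01, and 22 with a block for LM74 and LM75, added after seeing the data. The 1 fall in YAP KO TAZ HET, Rpl29, became 3 with all libraries in 1 fit and 0 with no filter or at an adjusted p under 0.01. It was also 0 without members that have a near-identical copy among the genes listed, and without Rps18, Rps2 and Rpl29 (added after seeing the data). Both of these sets leave out Rpl29 itself, so that their 0 was fixed in advance and shows no dependence on processing. The cause of the other changes was not tested. With each mouse left out in turn, counts ranged in YAP KO from 0 to 1 higher and 2 to 10 lower (as deposited 8 to 17 and 0 to 0) and in YAP KO TAZ HET from 0 to 4 and 0 to 1 (9 to 33 and 0 to 1). The share of all genes called in these fits with fewer mice is not given here, so that these ranges are not particular to the members. Medians ranged from -0.25 to -0.13 (0.09 to 0.22) and from -0.14 to 0.06 (0.22 to 0.35), the latter above 0 without LM225 (0.04) or LM230 (0.06). For the WT groups 0 to 0 members passed (0 to 2 as deposited) with medians from -0.27 to -0.07 (-0.18 to -0.05), and 0 to 0 (0 to 1) passed for the difference between the models. The ratio of summed TPM ranged from 1.067 to 1.164, 1.175 to 1.284 and 0.8392 to 0.9156. For the 21 tests of single members printed with their alternatives, 251 values kept direction and side of the threshold, 27 passed newly, 25 no longer passed and 1 turned.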

Other observations

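Other members have near-identical partners among the genes listed, chosen here after their values were seen. Rpl10-ps3 has the same 642 coding bases as Rpl10. Rpl10 was at 193.7, 216.6 and 228.3 TPM in YAP KO, 117.9, 155.4 and 179.4 TPM in WT (C57BL/6), 262.3, 200.5 and 94.06 TPM in the YAP KO TAZ HET mice and 160.6, 186.9 and 187.9 TPM in WT (mixed) livers, while Rpl10-ps3 lay between 873.9 and 1269 TPM. The pair summed to 1331, 1336 and 1306 against 1120, 1226 and 1211 TPM, and to 1314, 1314 and 1363 against 1034, 1064 and 1215 TPM. LM251, the lowest for Rpl10, had the highest sum.

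Rps27rt matches all 252 coding bases of Rps27. The YAP KO TAZ HET mice had 20.44, 0.9575 and 127.7 TPM of it, a spread that the sum of the pair (311.6, 289.2 and 485.2 TPM) did not show to that extent.

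Single libraries stood low for 2 members. Rpl30 was at 104.1 TPM in LM189 and 114.8 TPM in LM193, where the other 10 livers had 168.4 to 248.3 TPM. Rpl34 was at 73.26 TPM in LM251, where the other 11 livers had 108.6 to 144.5 TPM.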
